A study of Mus musculus with 24 samples.

Results

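Transcripts of 10 core genes of the circadian clock were followed in mouse bone marrow-derived macrophages (BMDM), macrophages grown in culture from marrow cells with L929-cell-conditioned medium. The set is Arntl, Clock, Per1, Per2, Cry1, Cry2, Nr1d1, Nr1d2, Dbp and Bhlhe40, listed by name, and all 10 were found among the 56941 gene IDs of the count table, each on 1 ID. Their Ensembl gene IDs and mouse chromosomes are ENSMUSG00000055116 on chromosome 7 for Arntl, ENSMUSG00000029238 on chromosome 5 for Clock, ENSMUSG00000020893 on chromosome 11 for Per1, ENSMUSG00000055866 on chromosome 1 for Per2, ENSMUSG00000020038 on chromosome 10 for Cry1. The others are ENSMUSG00000068742 on chromosome 2 for Cry2, ENSMUSG00000020889 on chromosome 11 for Nr1d1, ENSMUSG00000021775 on chromosome 14 for Nr1d2, ENSMUSG00000059824 on chromosome 7 for Dbp and ENSMUSG00000030103 on chromosome 6 for Bhlhe40. RNA sequencing covered 6 groups of 4 libraries: a knockout of Hdac9 (KO), HDAC9 deltaCIS, a deletion of a cis-regulatory element of that gene (dCIS) and wild type (WT), each with LPS and untreated. LPS is a cell wall component of Gram-negative bacteria, sensed by TLR4, and was given at 100 ng/ml for 6 hours. These 6 hours are recorded for libraries with LPS only, and no elapsed time is recorded for the untreated ones. Cells of all groups had been left without conditioned medium for 24 hours and were then kept without serum. The sources used here do not give how the alleles were made, the strain, age or number of mice, or the time of day at harvest. Whether the 4 libraries of a group stem from different animals or cultures is not stated, so a p-value here reflects the variation from library to library, part of which may be technical.

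The clock is a loop of transcription that cells of most tissues carry, macrophages included. BMAL1 (encoded by Arntl) and CLOCK bind as a dimer to E-boxes and switch on the Per and Cry genes, whose proteins return to repress that dimer. REV-ERB alpha and REV-ERB beta (Nr1d1 and Nr1d2) repress Arntl through ROR elements, and in macrophages REV-ERBs also restrain inflammatory genes. DBP, a transcription factor driven by E-boxes, carries the rhythm to D-box genes, and BHLHE40, also called DEC1, represses at E-boxes.

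Promoter windows were searched for sequences matching these elements close to the start sites. RefSeq promoter windows on GRCm38.p6, from 250 bases before to 50 after a start, were matched for 8 of the 10 genes. The 4 printed here are the windows of 1 PER gene, 1 CRY gene and both REV-ERB genes, paralogs of which are compared below. Capitals mark an E-box (CACGTG), an E′-box (CACGTT, or AACGTG on the other strand) or the core of a ROR element (AGGTCA, or TGACCT on the other strand). The windows are chr11:69098699-69098998 on the plus strand for Per1, chr10:85185005-85185304 on the minus strand for Cry1, chr11:98775328-98775627 on the minus strand for Nr1d1 and chr14:18239057-18239356 on the minus strand for Nr1d2, each written 5′ to 3′ on its own strand.
Per1: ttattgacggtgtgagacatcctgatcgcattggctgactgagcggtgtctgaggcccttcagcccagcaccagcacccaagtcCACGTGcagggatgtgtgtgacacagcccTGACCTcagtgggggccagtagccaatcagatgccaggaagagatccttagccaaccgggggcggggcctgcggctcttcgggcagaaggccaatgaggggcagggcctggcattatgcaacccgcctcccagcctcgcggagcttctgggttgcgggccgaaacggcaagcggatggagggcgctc
Cry1: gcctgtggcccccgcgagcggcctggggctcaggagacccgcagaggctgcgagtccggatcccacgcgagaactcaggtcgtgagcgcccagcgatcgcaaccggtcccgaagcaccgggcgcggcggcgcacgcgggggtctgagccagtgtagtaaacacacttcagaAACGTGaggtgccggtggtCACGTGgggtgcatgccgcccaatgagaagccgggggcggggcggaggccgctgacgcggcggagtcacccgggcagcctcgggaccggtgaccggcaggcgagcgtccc
Nr1d1: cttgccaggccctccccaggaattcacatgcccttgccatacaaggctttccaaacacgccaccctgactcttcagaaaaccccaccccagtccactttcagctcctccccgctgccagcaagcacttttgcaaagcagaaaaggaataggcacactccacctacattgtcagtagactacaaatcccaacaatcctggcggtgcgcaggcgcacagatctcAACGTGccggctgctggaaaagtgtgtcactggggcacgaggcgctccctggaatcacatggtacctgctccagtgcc
Nr1d2: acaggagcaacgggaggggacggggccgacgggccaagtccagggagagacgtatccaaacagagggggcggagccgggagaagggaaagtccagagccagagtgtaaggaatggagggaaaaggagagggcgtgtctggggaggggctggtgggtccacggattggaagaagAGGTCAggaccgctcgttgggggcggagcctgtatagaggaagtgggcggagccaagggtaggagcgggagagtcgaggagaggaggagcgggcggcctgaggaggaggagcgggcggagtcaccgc

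The printed Per1 window held an E-box 166 bases and a ROR core 137 bases before the start. The Cry1 window held an E′-box 79 bases and an E-box 60 bases before the start. The Nr1d1 window held an E′-box 28 bases before the start, and the Nr1d2 window a ROR core 77 bases before it. Among the windows not printed, Cry2 held an E′-box 166 bases before the start, and 1 Clock window and 1 Arntl window each held a ROR core. The other Per1 window, the Dbp window and the remaining Clock and Arntl windows held none of these elements. Both strands were searched, and no match overlapped another. Of the ROR element only the core was matched and its flanks were not examined, so a ROR core is not shown to be a ROR element. Of all 32851 windows, 7.15% held an E-box, 4.68% an E′-box and 16.3% a ROR core. The D-box TTANGTAA (2.32% of windows) and the cAMP response element TGACGTCA (1.79%) were found in no window of these genes.

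Total counts per library ranged from 14636058 to 19181707. Hdac9, the targeted gene, stood at 0.302 ± 0.155 CPM in KO with LPS and 1.04 ± 0.218 CPM in untreated KO, while dCIS libraries held 9.89 to 21.2 CPM and WT libraries 9.15 to 16.5 CPM over both treatments (SD, n = 4 each). CPM are counts relative to the library size after TMM scaling, which assumes that most genes keep their level. The macrophage genes Adgre1 and Csf1r were at or above 1479 and 575.6 CPM in every library. Summed CPM of 5 neutrophil markers reached 2.59 to 4.58 in libraries with LPS and 0.92 to 3.30 in untreated ones. Markers of T cells, B cells and fibroblasts summed to at most 0.659 CPM, and 3 dendritic cell markers to at most 1.25 CPM. Libraries 3 and 4 of dCIS with LPS had 17628 and 15997 genes with a count, against 20458 to 22736 in the other 22. In bulk RNA, fewer cells of a type and less RNA per cell cannot be told apart.

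**Figure D1:**
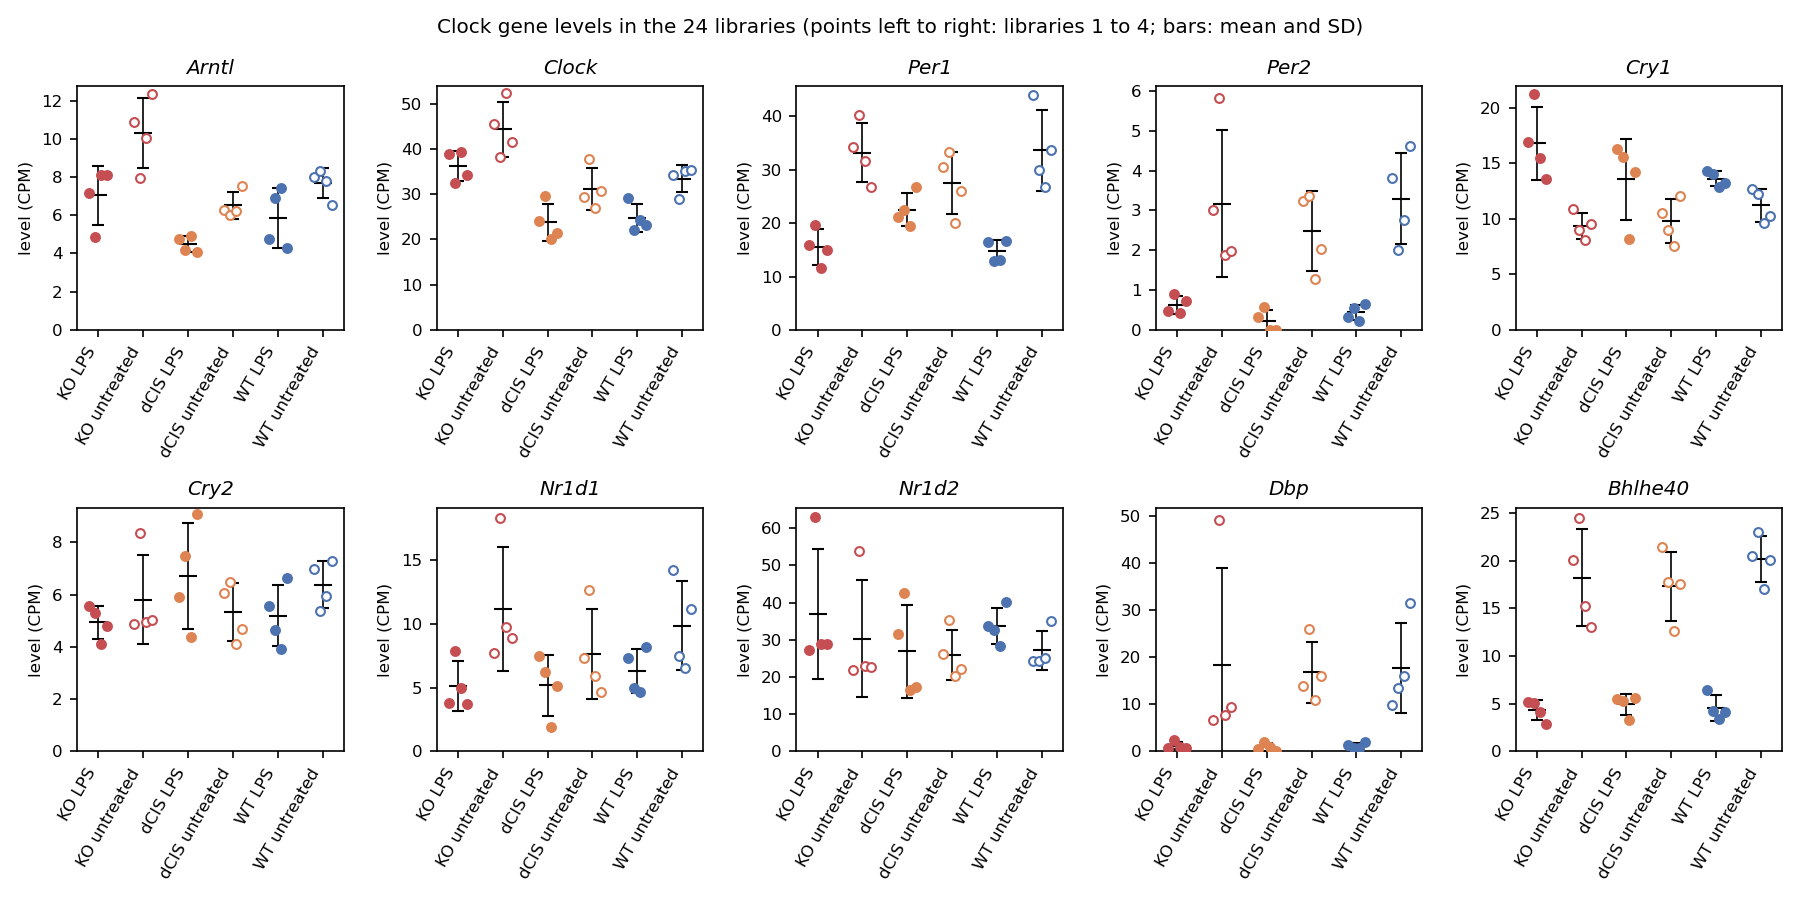
Level of each clock gene in CPM (y axis, linear) in the 24 libraries, by group (x axis); filled points are libraries with LPS, open points untreated libraries, placed left to right as libraries 1 to 4, with the mean and SD of 4 (bars end at 0). Dbp, Per2 and Bhlhe40 of the libraries with LPS lie below every untreated library of their genotype, and Dbp of untreated KO library 2 stands at 49.3 CPM.

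With LPS, the output gene Dbp, the repressors Per2 and Bhlhe40 and the activator Clock fell in all 3 genotypes. A fall or rise with LPS here means a difference from untreated libraries, for which the 6 hours are not recorded. LPS and elapsed time are therefore not separated in these comparisons. The part of elapsed time or of clock phase in the differences was not tested. In the fit over all genes (edgeR, adjusted p under 0.05), 7 of the 10 genes fell and 1 rose in KO, 5 fell and 1 rose in dCIS, and 5 fell and 0 rose in WT. With libraries of the same number paired, 9 were called in KO, 8 in dCIS and 8 in WT, Nr1d2 being called higher in KO and WT. Of all 14757 genes, the paired fit called 4827 higher and 4763 lower in KO. It called 4802 and 5193 in dCIS, and 4707 and 4841 in WT. Whether the paired share of clock genes differs from that of genes at large was not tested. Without pairing, 61.6% of all 14757 genes tested were called in KO (30.7% lower, 30.9% higher). The shares were 64.7% in dCIS (33.3% lower, 31.3% higher) and 61.4% in WT (31% lower, 30.4% higher). In that unpaired fit the share of clock genes called was near that of genes at large. The members leaned downward: their median log2 fold change was -0.82 in KO, -0.46 in dCIS and -0.54 in WT, beside 0.019, -0.051 and 0.0030 over all genes tested. The libraries with LPS and the untreated ones did not overlap for 5 members in KO, 4 in dCIS and 5 in WT, against 59%, 51.4% and 61.8% of all genes. DESeq2 called 8, 6 and 6 members. With library totals in place of TMM, a scaling chosen after the data were seen, the median of all genes stood at -0.80 in KO, -0.81 in dCIS and -0.80 in WT. The calls then split into 2044 higher and 9494 lower in KO, 2233 and 9448 in dCIS, and 2067 and 9525 in WT, against 4558 and 4527, 4626 and 4921, and 4484 and 4571 with TMM. All log2 fold changes given here are relative to the typical gene of the library.

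**Figure D2:**
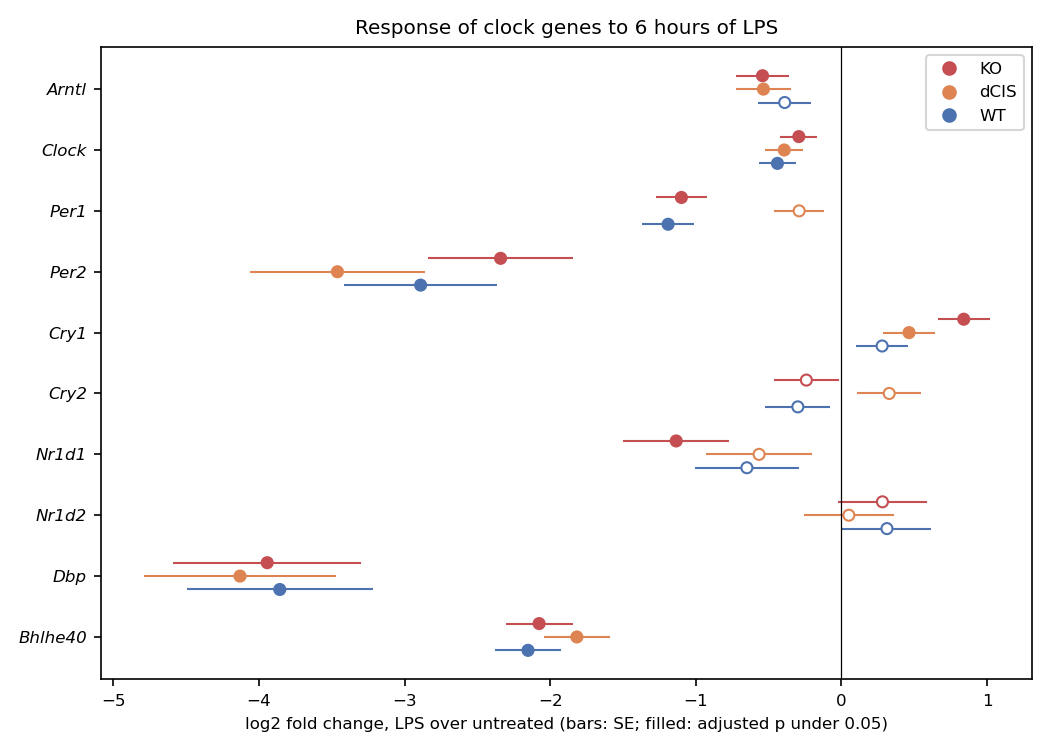
Log2 fold change of LPS over untreated (x axis) for each clock gene (y axis) in KO, dCIS and WT, with SE as bars; filled points passed an adjusted p of 0.05 in edgeR. Dbp and Per2 lie farthest to the left in all 3 genotypes, and Cry1 lies to the right of 0 in all 3.

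Dbp, the output transcription factor, showed the deepest fall of the 10 genes. In KO it stood at 0.742, 2.34, 1.00 and 0.718 CPM with LPS, against 6.58, 49.3, 7.77 and 9.48 CPM untreated. In dCIS it stood at 0.568, 2.06, 1.02 and 0.164 CPM with LPS, against 14.0, 26.1, 11.0 and 16.1 CPM untreated. In WT it stood at 1.47, 0.776, 0.706 and 1.94 CPM with LPS, against 9.80, 13.5, 16.1 and 31.6 CPM untreated. Every library with LPS lay below every untreated library of its genotype. The log2 fold change of Dbp was -3.94 in KO (SE 0.646, a 15.4-fold drop), -4.13 in dCIS (SE 0.661, 17.5-fold) and -3.86 in WT (SE 0.637, 14.5-fold). The edgeR adjusted p was 7.41e-06 in KO, 5.22e-06 in dCIS and 8.26e-06 in WT, and at most 8.49e-05 in any of the 3 when 1 library was left out. Untreated KO library 2, at 49.3 CPM, carried much of the KO value, which was -2.74 without it, and the dCIS value was -4.80 without dCIS library 2 with LPS. Sphk2, which overlaps Dbp on the opposite strand, had log2 fold changes of 0.69 in KO, 0.90 in dCIS and 0.79 in WT, all called. These were -0.13, 0.15 and -0.023 with library totals in place of TMM, none called. The strand setting of the counting is not given in the sources used here.

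Tef and Nfil3, the relatives of Dbp that activate and repress at D-boxes, were also called. Tef, a PAR bZIP activator, fell, with log2 fold changes of -2.89 in KO (SE 0.328), -2.63 in dCIS (SE 0.324) and -2.47 in WT (SE 0.317). Nfil3, a repressor of D-box genes, rose by 2.46 in KO (SE 0.12), 2.66 in dCIS (SE 0.12) and 2.48 in WT (SE 0.119), to 47.7 ± 5.15 CPM in KO with LPS against 8.67 ± 0.636 CPM in untreated KO. Hlf, the remaining member of this list, had too few counts to be tested.

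Per2, a repressor of the CLOCK and BMAL1 dimer, came next. In KO it stood at 0.464, 0.898, 0.418 and 0.718 CPM with LPS, against 3.00, 5.83, 1.88 and 1.97 CPM untreated. In dCIS it stood at 0.324, 0.576, 0 and 0 CPM with LPS, against 3.24, 3.37, 1.29 and 2.04 CPM untreated. In WT it stood at 0.327, 0.544, 0.235 and 0.647 CPM with LPS, against 3.81, 2.00, 2.76 and 4.60 CPM untreated. No library with LPS reached an untreated library of its genotype. Counts with LPS were 0 to 10 per library, and the 0 counts in dCIS libraries 3 and 4 allow up to 0.220 and 0.245 CPM (3 counts; counting error only). The log2 fold change of Per2 was -2.34 in KO (SE 0.5, edgeR adjusted p 0.00022), -3.46 in dCIS (SE 0.601, adjusted p 1.63e-05) and -2.89 in WT (SE 0.523, adjusted p 2.89e-05). Both 0 counts were in the dCIS libraries with 17628 and 15997 genes detected, without which the dCIS value was -2.45 (adjusted p 0.00155). Leaving out single libraries gave -4.48 to -3.02 in dCIS, the lowest without library 2 with LPS.

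Per1, the paralog of Per2, fell in KO and WT. Its KO libraries stood at 15.9, 19.7, 11.6 and 14.9 CPM with LPS, against 34.2, 40.1, 31.6 and 26.8 CPM untreated. Its dCIS libraries stood at 21.2, 22.5, 19.5 and 26.7 CPM with LPS, against 30.5, 33.3, 20.0 and 26.1 CPM untreated. Its WT libraries stood at 16.4, 12.8, 13.0 and 16.6 CPM with LPS, against 44.0, 29.9, 26.8 and 33.7 CPM untreated. The groups stood apart in KO and WT and overlapped in dCIS. The log2 fold change of Per1 was -1.10 in KO (SE 0.177, edgeR adjusted p 5.89e-06), -0.29 in dCIS (SE 0.173, 0.144) and -1.19 in WT (SE 0.177, 1.8e-06). The difference between the dCIS and the WT response was 0.90 (SE 0.247) and did not pass over all genes (edgeR adjusted p 0.479; unadjusted p 0.0012). With genes of low counts kept in the test its edgeR adjusted p was 0.00925, in a fit that called 11 of 36121 genes higher and 24 lower. In dCIS, Per1 was called without untreated library 3 (-0.51, edgeR adjusted p 0.0124) and with genes of low counts kept (-0.43, edgeR adjusted p 0.00767). With libraries of the same number paired, Per1 was also called lower in dCIS.

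Cry1, a strong repressor of the dimer, was the 1 member called higher without pairing. In KO it stood at 17.0, 21.3, 15.5 and 13.6 CPM with LPS, against 10.9, 8.96, 8.12 and 9.58 CPM untreated. In dCIS it stood at 16.3, 15.5, 8.20 and 14.2 CPM with LPS, against 10.6, 9.04, 7.54 and 12.1 CPM untreated. In WT it stood at 14.3, 14.1, 12.9 and 13.3 CPM with LPS, against 12.7, 12.2, 9.67 and 10.3 CPM untreated. The groups stood apart in KO and WT and overlapped in dCIS through library 3 with LPS. Cry1 rose by 0.84 in KO (SE 0.178, edgeR adjusted p 0.000204) and by 0.46 in dCIS (SE 0.179, adjusted p 0.0256); in WT the value was 0.28 (SE 0.178, edgeR adjusted p 0.18). With library totals in place of TMM the values were 0.012 in KO (adjusted p 0.95), -0.31 in dCIS (adjusted p 0.104) and -0.53 in WT (adjusted p 0.00681). The dCIS call was lost without dCIS library 1, 2 or 4 with LPS or 2 or 3 untreated (adjusted p up to 0.215), in a fit of the dCIS groups alone (0.0892) and with genes of low counts kept (0.154).

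Cry2, the paralog of Cry1, was not called in any genotype. It stood at 5.57, 5.30, 4.10 and 4.78 CPM in KO with LPS, against 4.89, 8.36, 4.95 and 5.02 CPM in untreated KO. It stood at 5.92, 7.48, 4.39 and 9.08 CPM in dCIS with LPS, against 6.06, 6.47, 4.12 and 4.70 CPM in untreated dCIS. It stood at 5.56, 4.66, 3.92 and 6.63 CPM in WT with LPS, against 6.97, 5.36, 5.96 and 7.27 CPM in untreated WT. The groups overlapped in each genotype. The log2 fold changes were -0.24 in KO (SE 0.226), 0.33 in dCIS (SE 0.221) and -0.30 in WT (SE 0.223), with edgeR adjusted p of 0.368, 0.197 and 0.254. With library totals in place of TMM the dCIS value turned to -0.43 (adjusted p 0.0754), and Cry2 was called lower in KO (-1.06, adjusted p 0.000152) and WT (-1.11, adjusted p 7.95e-05).

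Bhlhe40, the E-box repressor DEC1, fell in all 3 genotypes. It stood at 5.19, 5.12, 4.18 and 2.87 CPM in KO with LPS, against 20.1, 24.5, 15.3 and 13.0 CPM in untreated KO. It stood at 5.51, 5.26, 3.30 and 5.64 CPM in dCIS with LPS, against 21.4, 17.7, 12.6 and 17.5 CPM in untreated dCIS. It stood at 6.46, 4.19, 3.37 and 4.12 CPM in WT with LPS, against 20.5, 23.0, 17.1 and 20.1 CPM in untreated WT. The highest library with LPS was well under the lowest untreated library in each genotype. The log2 fold change of Bhlhe40 was -2.08 in KO (SE 0.23, edgeR adjusted p 1.28e-08), -1.82 in dCIS (SE 0.225, adjusted p 8.79e-08) and -2.15 in WT (SE 0.227, adjusted p 5.31e-09). The non-coding gene 0610040F04Rik, which overlaps it on the opposite strand, had at most 0.157 CPM.

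The activators Arntl and Clock changed by less than Dbp, Per2 and Bhlhe40 did. Arntl stood at 7.14, 4.85, 8.11 and 8.13 CPM in KO with LPS, against 10.9, 7.96, 10.1 and 12.3 CPM in untreated KO. It stood at 4.78, 4.19, 4.91 and 4.09 CPM in dCIS with LPS, against 6.30, 6.00, 6.25 and 7.54 CPM in untreated dCIS. It stood at 4.74, 6.91, 7.45 and 4.29 CPM in WT with LPS, against 7.99, 8.34, 7.81 and 6.54 CPM in untreated WT. The dCIS groups stood apart, while KO and WT libraries with LPS reached into the untreated range. Arntl fell, with log2 fold changes of -0.54 in KO (SE 0.18, edgeR adjusted p 0.0107) and, for dCIS, -0.54 (SE 0.188, 0.0148). In WT the log2 fold change was -0.39 (SE 0.183, adjusted p 0.0672), and -0.41 with libraries of the same number paired (adjusted p 0.0208); it was also called without WT library 2 or 3 with LPS or 4 untreated (adjusted p 0.0232 to 0.0476). The KO call was lost without KO library 2 with LPS (-0.40, adjusted p 0.0579), and the dCIS call without untreated dCIS library 4 (-0.46, adjusted p 0.0507) or without dCIS libraries 3 and 4 with LPS (-0.54, adjusted p 0.0559).

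Clock, which encodes the partner of BMAL1, fell by the least of the members called lower in each genotype. It stood at 38.8, 32.5, 39.2 and 34.3 CPM in KO with LPS, against 45.4, 38.2, 52.3 and 41.5 CPM in untreated KO. It stood at 24.0, 29.5, 20.0 and 21.5 CPM in dCIS with LPS, against 29.3, 37.8, 26.9 and 30.7 CPM in untreated dCIS. It stood at 29.1, 22.1, 24.2 and 23.3 CPM in WT with LPS, against 34.3, 28.9, 35.1 and 35.4 CPM in untreated WT. The groups overlapped in each genotype. The log2 fold change of Clock was -0.29 in KO (SE 0.128, edgeR adjusted p 0.0492), -0.39 in dCIS (SE 0.13, adjusted p 0.0101) and -0.44 in WT (SE 0.13, adjusted p 0.00466). The KO call was lost without any 1 of KO libraries 2 or 4 with LPS and 1 or 3 untreated (adjusted p 0.0855 to 0.189), and the dCIS call without untreated library 2 (0.0556), in the dCIS groups alone (0.0507) or without libraries 3 and 4 with LPS (-0.22, adjusted p 0.216).

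Of the REV-ERB paralogs, Nr1d1 was called lower in KO and Nr1d2 in no genotype. Nr1d1 stood at 3.80, 7.91, 5.02 and 3.75 CPM in KO with LPS, against 7.75, 18.3, 9.75 and 8.92 CPM in untreated KO. It stood at 7.46, 6.25, 1.90 and 5.15 CPM in dCIS with LPS, against 7.33, 12.7, 5.90 and 4.66 CPM in untreated dCIS. It stood at 7.36, 4.97, 4.70 and 8.16 CPM in WT with LPS, against 14.2, 7.50, 6.58 and 11.2 CPM in untreated WT. The groups overlapped in each genotype, in KO by library 2 with LPS alone. The log2 fold change of Nr1d1 was -1.13 in KO (SE 0.363, edgeR adjusted p 0.00846), -0.57 in dCIS (SE 0.364, adjusted p 0.177) and -0.65 in WT (SE 0.355, adjusted p 0.117). The KO value was -0.79 (edgeR adjusted p 0.0626) without untreated KO library 2, and the WT value -0.63 (edgeR adjusted p 0.00952) with same-numbered libraries paired. Pairing by number also called Nr1d1 lower in dCIS. Thra, which overlaps Nr1d1 on the opposite strand, was not called, with log2 fold changes of -0.18 in KO, -0.10 in dCIS and -0.27 in WT.

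Nr1d2, which encodes REV-ERB beta, was not called in the unpaired fit. It stood at 27.4, 63.2, 28.8 and 28.8 CPM in KO with LPS, against 21.9, 54.0, 22.9 and 22.7 CPM in untreated KO. It stood at 31.6, 42.6, 16.4 and 17.2 CPM in dCIS with LPS, against 26.3, 35.3, 20.3 and 22.0 CPM in untreated dCIS. It stood at 33.8, 32.8, 28.4 and 40.2 CPM in WT with LPS, against 24.4, 24.4, 25.1 and 34.9 CPM in untreated WT. The groups overlapped in each genotype, with KO library 2 far above the other KO libraries under both treatments. The log2 fold changes were 0.28 in KO (SE 0.305, edgeR adjusted p 0.44), 0.05 in dCIS (SE 0.308, adjusted p 0.898) and 0.31 in WT (SE 0.306, adjusted p 0.393). With same-numbered libraries paired, Nr1d2 was called higher in KO (0.30, adjusted p 0.0143) and WT (0.32, adjusted p 0.0104). With library totals in place of TMM the values were -0.56 in KO (adjusted p 0.0807), -0.74 in dCIS (adjusted p 0.0238) and -0.49 in WT (adjusted p 0.119). Without untreated KO library 2 the KO value was 0.71 (adjusted p 0.0347), and without KO library 2 with LPS it was -0.11.

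Paralogs were also compared as ratios within a library. The log2 ratio of Nr1d1 to Nr1d2, with 0.5 CPM added to each, was -2.70 ± 0.216 in KO with LPS against -1.37 ± 0.153 in untreated KO, and -2.36 ± 0.22 in WT with LPS against -1.46 ± 0.481 in untreated WT (SD, n = 4 each). The log2 ratio of Per1 to Per2 was 5.06 ± 0.605 in dCIS with LPS against 3.27 ± 0.221 in untreated dCIS, and 4.03 ± 0.305 in WT with LPS against 3.20 ± 0.372 in untreated WT. The log2 ratio of Cry1 to Cry2 was 1.66 ± 0.231 in KO with LPS against 0.676 ± 0.423 in untreated KO. In these 5 cases the libraries did not overlap, and the exact 2-sided permutation p was 0.0286, the smallest that 4 against 4 libraries allow. None of the 9 ratios tested passed after Benjamini-Hochberg adjustment, since 0.0286 becomes an adjusted permutation p of 0.0514. The other 4 shifts were 0.53 for Per1 to Per2 in KO, -0.53 for Nr1d1 to Nr1d2 in dCIS, 0.14 for Cry1 to Cry2 in dCIS and 0.56 for Cry1 to Cry2 in WT (exact permutation p 0.0857, 0.2, 0.571 and 0.0571). With 0.1 CPM added in place of 0.5, 6 of the 9 reached an adjusted permutation p of 0.0429, and the shift of Per1 to Per2 in dCIS was 3.12 in place of 1.79. Per2 in those dCIS libraries with LPS was at 0 to 0.576 CPM. Among the 6 was Per1 to Per2 in KO (adjusted permutation p 0.11 with 0.5 CPM), where Per2 had 5 to 10 counts per library with LPS. With libraries of the same number paired and 0.5 CPM added, the sign-flip p of the 9 ratios was 0.125 to 0.75. The smallest p that 4 pairs allow is 0.125, so the paired test could pass no ratio and decides nothing here.

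**Figure D3:**
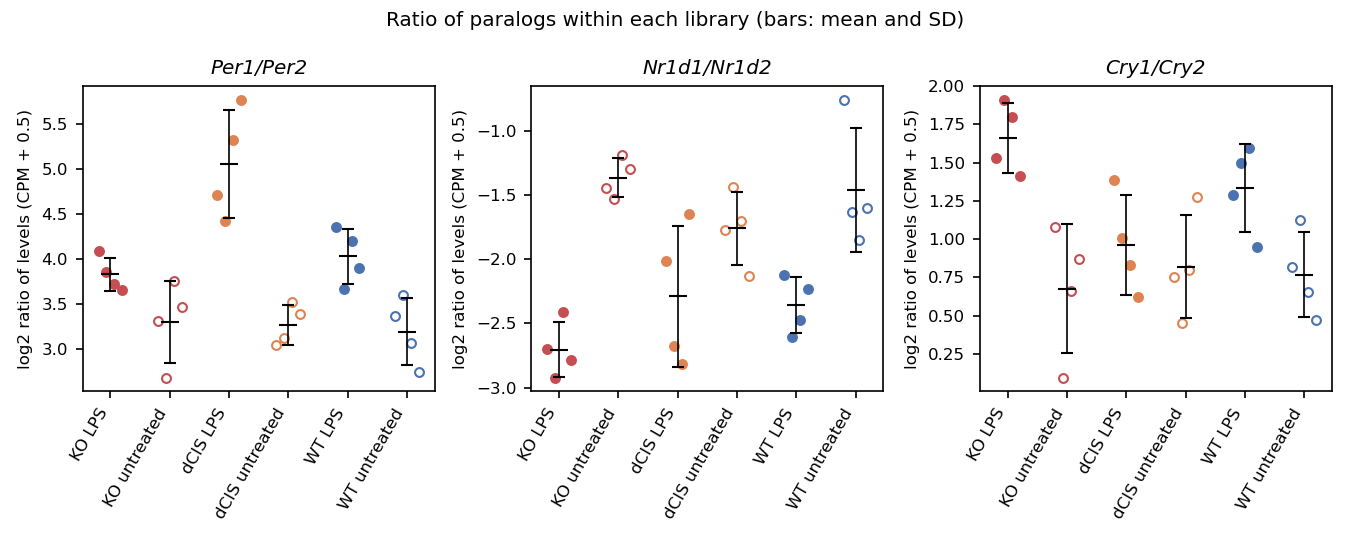
Log2 ratio of the levels of 2 paralogs within each library (y axis; 0.5 CPM added to each level) by group (x axis), with the mean and SD of 4 libraries as bars. The ratio of Nr1d1 to Nr1d2 is lower with LPS than untreated in KO and WT without overlap, and the ratio of Per1 to Per2 is higher with LPS in dCIS and WT without overlap.

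The wider loop was read from lists of related genes. Of 9 other loop genes, 7 could be tested, and with LPS 4 fell and 1 rose in KO, 5 fell and 1 rose in dCIS, and 5 fell and 1 rose in WT. For this list and those that follow, the share of all genes called was 61.6% in KO, 64.7% in dCIS and 61.4% in WT. Npas2, which can stand in for CLOCK, reached at most 0.0898 CPM in a KO library with LPS against at least 3.02 CPM in an untreated one, and at most 0.327 CPM in a WT library with LPS against at least 3.20 CPM in an untreated one. Bhlhe41, the DEC2 paralog of Bhlhe40, fell, with log2 fold changes of -2.23 in KO (SE 0.173), -1.73 in dCIS (SE 0.168) and -2.03 in WT (SE 0.17). Rora, an activator of Arntl at ROR elements, fell (-1.43 in KO, -1.39 in dCIS, -1.29 in WT), as did Per3 (-2.69 in KO, -1.95 in dCIS, -2.72 in WT). Timeless, a replication fork protein related to the fly clock gene, rose by 1.72, 0.88 and 1.41; with library totals in place of TMM its dCIS value was 0.12 (adjusted p 0.545).

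Among 8 kinases and ubiquitin ligases that set the turnover of PER and CRY proteins, 7 were tested and 5 rose in each genotype. Fbxw11, a ligase subunit for PER, rose by 1.81 in KO (SE 0.093), 1.82 in dCIS (SE 0.0932) and 1.81 in WT (SE 0.0931). Csnk1d, the kinase CK1 delta, rose by 0.98, 0.99 and 1.02 in KO, dCIS and WT. Csnk1a1, the kinase CK1 alpha, rose by 0.74, 0.71 and 0.81 in KO, dCIS and WT. Fbxw11 remained higher with library totals in place of TMM, at 0.99, 1.06 and 1.00. Under that scaling Csnk1a1 stood at -0.077, -0.054 and 0.0029, none of them called. Of 4 corepressor genes of the REV-ERBs, Tbl1x rose by 1.01, 1.07 and 1.05 in KO, dCIS and WT, and was not called with library totals (0.18, 0.29 and 0.25). Tbl1xr1 fell (-0.59, -0.44 and -0.52), and Hdac3, the deacetylase of that complex, was not called. Ncor1, its scaffold, rose in dCIS with LPS (0.37, SE 0.131), and with library totals stood at -0.41 there.

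Of 4 further output genes, 3 fell and 1 rose in each genotype. Nampt, the rate-limiting enzyme of NAD salvage, rose by 3.02 in KO, 3.02 in dCIS and 2.93 in WT (SE 0.128 each). Wee1, a cell cycle kinase with E-boxes in its promoter, fell (-1.22 in KO, -1.57 in dCIS, -1.33 in WT). Por, the cytochrome P450 reductase, fell (-0.99 in KO, -0.82 in dCIS, -0.94 in WT). Usp2, a rhythmic deubiquitinase, fell (-2.09 in KO, -1.60 in dCIS, -1.19 in WT). Of 6 genes that REV-ERBs are known to repress in macrophages, 4 rose and 1 fell in each genotype: Il6, Ccl2, Il1b and Nlrp3 rose and Cx3cr1 fell. Ccl2, a monocyte chemokine, rose by 4.14 in KO (SE 0.287), 3.77 in dCIS (SE 0.282) and 4.03 in WT (SE 0.285). Nlrp3, the inflammasome sensor, rose by 3.74 in KO (SE 0.18), 3.67 in dCIS (SE 0.18) and 3.39 in WT (SE 0.178).

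Between genotypes, Clock was higher in KO. With LPS, the 4 KO libraries (32.5 to 39.2 CPM) lay above the highest WT library (29.1 CPM) and the highest dCIS library (29.5 CPM). Untreated, the KO libraries (38.2 to 52.3 CPM) lay above the highest WT library (35.4 CPM) and the highest dCIS library (37.8 CPM). Clock rose in KO against WT by 0.55 with LPS (SE 0.131, edgeR adjusted p 0.0248) and by 0.41 untreated (SE 0.126, adjusted p 0.0485). It rose in KO against dCIS by 0.61 with LPS (SE 0.131, adjusted p 0.0139) and by 0.51 untreated (SE 0.126, adjusted p 0.00759). The untreated call against WT was lost without any single library other than KO 2 (adjusted p 0.0576 to 0.175), and the call against WT with LPS without KO 1 or 3 or WT 2 or 3 (up to 0.119). The call against dCIS with LPS was lost without KO 3, dCIS 3 or dCIS 4 (up to 0.07) and without both of those dCIS libraries (0.44, adjusted p 0.377). The call against untreated dCIS held without each library in turn (adjusted p 0.00107 to 0.0367).

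Arntl, the partner of Clock, was higher in untreated KO (7.96 to 12.3 CPM) than in untreated dCIS (6.00 to 7.54 CPM), with no overlap. The rise was 0.66 (SE 0.174, edgeR adjusted p 0.0104), and held without each library in turn (adjusted p 0.00573 to 0.0445). Against untreated WT (6.54 to 8.34 CPM) the log2 fold change was 0.42 (SE 0.173, adjusted p 0.123), and with LPS it was 0.65 against dCIS (SE 0.193, adjusted p 0.0691) and 0.27 against WT (SE 0.189, adjusted p 0.428). DESeq2 called the untreated WT comparison (adjusted p 0.0334) and the dCIS comparison with LPS (adjusted p 0.0321).

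The numbers of members called were 1 for KO against WT with LPS and 1 untreated, where 2.74% and 7.31% of all genes were called. Those calls split into 341 higher and 64 lower with LPS and 742 higher and 337 lower untreated; with library totals in place of TMM the splits were 250 and 163, and 595 and 502. They were 1 for KO against dCIS with LPS and 2 untreated, where 2.18% and 21.3% of all genes were called. With LPS the calls against dCIS were 199 higher and 123 lower, and 135 and 271 with library totals. Groups did not overlap for those same members alone, against 7.89% of all genes for KO against dCIS with LPS, 18.7% untreated, 18.3% for KO against WT with LPS and 21.5% untreated. For dCIS against WT, edgeR and DESeq2 each called 0 members with LPS and 0 untreated, where 0.258% and 0.0542% of all genes were called. At an unadjusted p under 0.05 edgeR had 1 member with LPS and 0 untreated. The 1 member was Per1, at 19.5 to 26.7 CPM in dCIS with LPS, against 12.8 to 16.6 CPM in WT with LPS. Those libraries did not overlap, as for 6.86% of all genes, and the log2 fold change was 0.61 (SE 0.18, edgeR adjusted p 0.134). With genes of low counts kept the edgeR adjusted p was 0.00466, in a fit that called 137 of 36121 genes higher and 140 lower. In untreated dCIS all 10 members had log2 fold changes below 0 against WT, from -0.06 to -0.40, with a median of -0.23 beside -0.0014 over all genes. Their libraries overlapped for all 10, while 2.51% of all genes had no overlap.

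**Figure D4:**
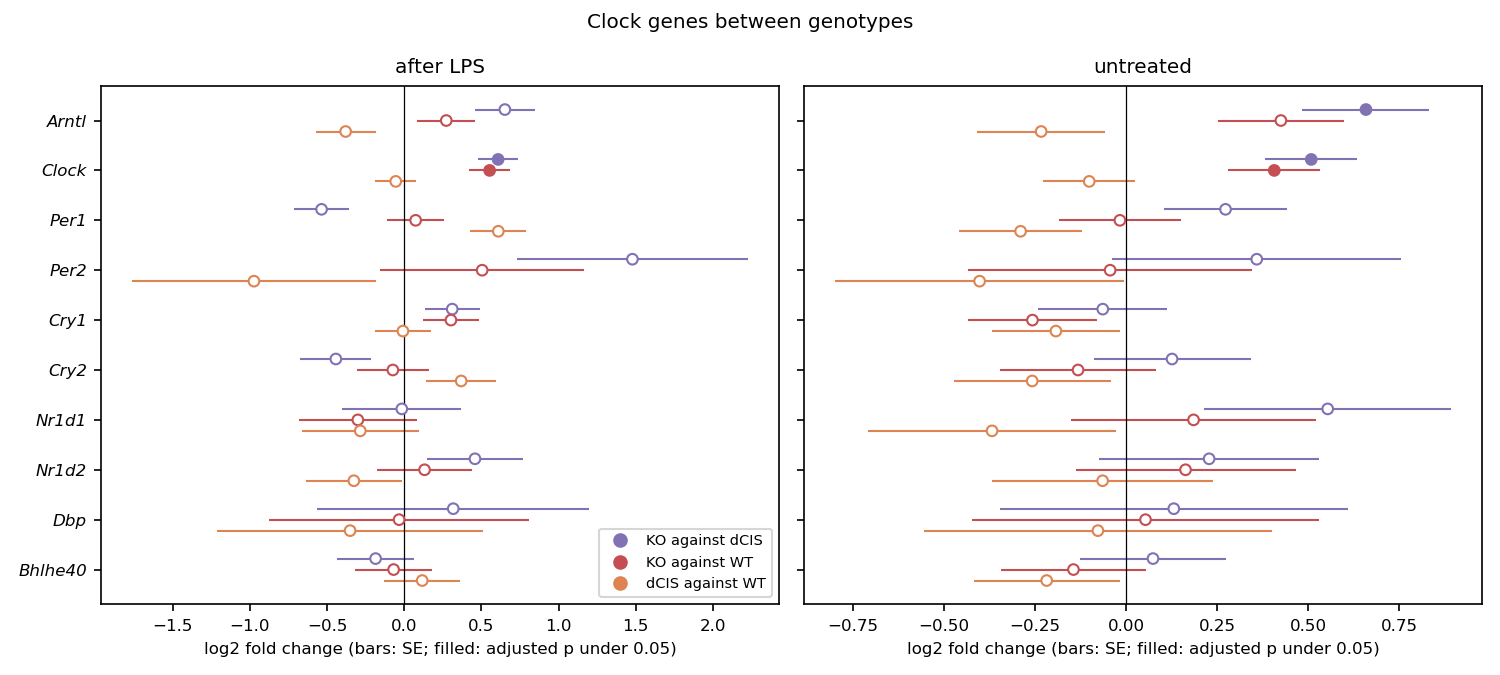
Log2 fold changes between genotypes (x axes, with their own ranges) for each clock gene (y axis) after LPS (left panel) and untreated (right panel), with SE as bars; filled points passed an adjusted p of 0.05 in edgeR. Clock is filled for KO against WT and for KO against dCIS in both panels, Arntl only for KO against dCIS untreated, and no member is filled for dCIS against WT.

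The LPS response was called different between genotypes for 0 members with the filter on low counts. With genes of low counts kept it was called for 1, Per1 in dCIS minus WT (edgeR adjusted p 0.00925). Of all 36121 genes in that fit, 11 were called higher and 24 lower for dCIS minus WT. For KO minus WT and for dCIS minus WT, edgeR with the filter and DESeq2 each called 0 of the 10. That edgeR fit called 0.0203% and 0% of all genes. At an unadjusted p under 0.05 edgeR had 1 member in each: Cry1 for KO minus WT (0.56, SE 0.251, p 0.0347, adjusted p 1.00) and Per1 for dCIS minus WT. For Per2 the difference was 0.55 for KO minus WT (SE 0.765) and -0.57 for dCIS minus WT (SE 0.873), and for Dbp -0.09 (SE 0.971) and -0.27 (SE 0.985). The comparisons of KO and of dCIS with WT share the WT libraries.

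Of the other lists, Ncor1 and Gsk3b were higher in KO than in WT. Ncor1, the corepressor scaffold, stood at 175.6 ± 23.2 CPM in KO with LPS against 122.4 ± 16.4 CPM in WT with LPS, a log2 rise of 0.52 (SE 0.131, edgeR adjusted p 0.0345). Its untreated level was 165.7 ± 8.66 CPM for KO libraries and 107.6 ± 6.02 CPM for WT libraries, a rise of 0.62 (SE 0.13, adjusted p 0.0107). Gsk3b, a kinase of several clock proteins, stood at 123.7 ± 8.23 CPM in untreated KO against 84.4 ± 4.52 CPM in untreated WT, a rise of 0.55 (SE 0.118, adjusted p 0.0116). Single libraries ended these calls: Ncor1 with LPS lost it without KO 1 or 3 or WT 2 or 3 (adjusted p up to 0.187), Ncor1 untreated without WT library 2 (0.0591), and Gsk3b without WT library 2 (0.0631) or 3 (0.0509). Mmp9, a matrix protease on the list of REV-ERB targets, rose in untreated KO by 1.86 against WT (SE 0.377, edgeR adjusted p 0.00841) and by 2.14 against dCIS (SE 0.381, edgeR adjusted p 0.00127). Its untreated KO libraries spread from 29.5 to 136.1 CPM, against 16.2 to 32.6 CPM in WT and 11.3 to 28.8 CPM in dCIS. The lowest KO library thus lay within the WT range.

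Within groups, several members varied more than nearly all genes with a mean of at least 5 CPM. The SD of log2 levels within groups was 0.783 for Dbp, 0.546 for Nr1d1, 0.48 for Per2 and 0.479 for Nr1d2. The median over the 9181 genes of at least 5 CPM was 0.19. These place Dbp at the 99.9 percentile, Nr1d1 at 99, Per2 at 98 and Nr1d2 at 97.9. Per2, with a mean of 1.71 CPM, lies below the level of the genes it is ranked against. Dbp, with a mean of 9.36 CPM, had 2 to 26 counts per library with LPS, and Nr1d1 had 26 to 101. The part of counting error in the SDs of Per2, Dbp and Nr1d1 was not tested. Clock, with an SD of 0.183, was at the 46.2 percentile, and Arntl, with 0.243, at 73.1.

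Several members peaked in the same libraries. The library with the highest Dbp was number 2 in KO and number 2 in dCIS, with LPS and untreated, and number 4 in WT, with LPS and untreated. In that library Nr1d2 and Per2 were also the highest of the 4 in 6 of 6 groups, Nr1d1, Per1 and Cry2 in 4 of 6, and Arntl was the lowest in 5 of 6. Of the related genes, Per3 and Tef were highest there in 6 of 6 groups. In untreated KO, library 2 had 23.5 CPM of Per3 against at most 5.82 CPM in the other 3, and 59.1 CPM of Tef against at most 24.7 CPM. The macrophage gene Mertk was highest in the same library in 6 of 6 groups, and Csf1r, Adgre1, Lyz2 and Cd68 in 5 of 6. Itgam, the remaining macrophage marker, was highest there in 0 of 6 groups and lowest in 2, with 182.3 CPM in untreated KO library 2 against 213.4 to 248.6 CPM in the other 3. Untreated KO library 2 also had the largest total count, 19181707. WT library 4 had the smallest total of its group with LPS (16328738) and untreated (15750606). In the remaining groups the total of the library with the highest Dbp lay between those of the others. The part of these marker levels and of depth in the pattern was not tested. In each genotype the library number was the same with LPS and untreated, so the 6 groups may not be separate cases. How many of all genes peak in these libraries was not counted.

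**Figure D5:**
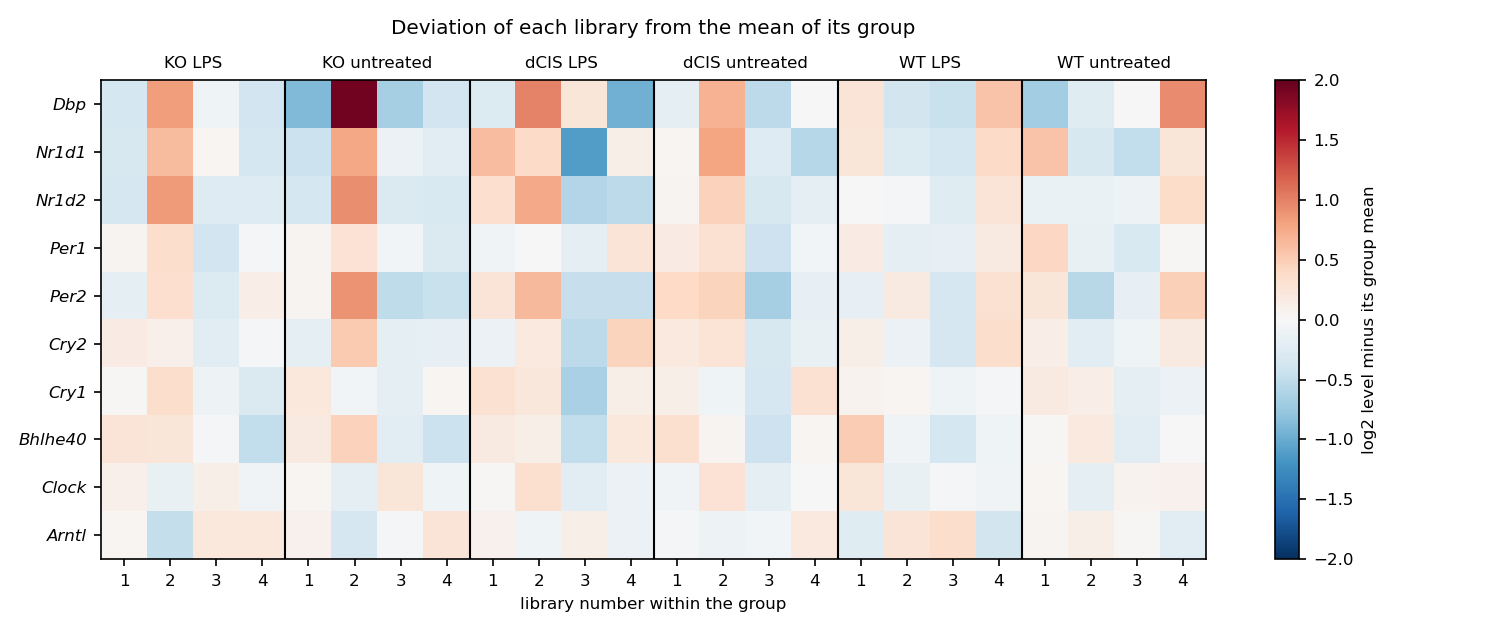
Log2 level of each clock gene (rows) minus the mean of its group, in each of the 24 libraries (columns, grouped by genotype and treatment), on a scale from blue (below the mean) to red (above it). KO and dCIS libraries numbered 2 and WT libraries numbered 4 are red for Dbp and Nr1d2 under both treatments, and Arntl is the lowest of its group in 5 of those 6.

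By likeness over the 24 libraries, with group means subtracted, the genes closest to Nr1d1 among 8658 were Dcaf10 (Pearson r 0.86, Spearman rho 0.84), Prdm1 (0.847 and 0.812) and Washc2 (0.847 and 0.754). Those closest to Arntl were Psph (0.823 and 0.844), Poglut1 (0.806 and 0.797) and Qpctl (0.792 and 0.765). The values share library, depth and the pattern of libraries described above, and are given as a description.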

How the data were processed

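RNA was captured on oligo-dT beads and read from both ends, per the labels' protocols. The authors deposited raw read counts, 1 column per library and 1 row per gene ID. The submitters' processing notes name STAR, edgeR and mm39. No source used here gives the tools' versions, the counting program, its strand setting or the annotation release, so reads of genes that overlap on opposite strands cannot be told apart. Symbols were matched for 51948 of 56941 gene IDs (91.2%). The genes described, the related lists and the tests were chosen with earlier results of these data known. Groups came from the sample titles. Chi-square tests of the 36 pairs of libraries within groups found none as alike as repeat reads of 1 library would be.

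Genes passing the edgeR filter (minimum count 10, minimum total 15) numbered 14757, all 10 clock genes among them. A single quasi-likelihood model over the 24 libraries was fitted in edgeR 4.0.16 under R 4.3.3, with TMM library sizes and a mean per group; TMM factors were 0.695 to 0.826 in libraries with LPS and 1.29 to 1.36 in untreated ones. Each of 11 comparisons was tested 2-sided by the quasi-likelihood F test, with Benjamini-Hochberg adjustment over all genes tested, and genes were called at an adjusted p under 0.05. The fit and the permutation test were tested on simulated data. All 10 members are named, up to 4 called genes of each related list, and the 3 genes most like Nr1d1 and Arntl among those of at least 5 CPM. Alternatives were RLE size factors, no filter, a filter of 1 CPM in 4 libraries, the replicate number as a block, DESeq2 1.42.0, the 2 groups of a comparison without the rest, and leaving out single libraries; fits without both KO libraries numbered 2 and with library totals in place of TMM were chosen after seeing the data.

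The labels do not say that replicate numbers pair libraries. Deviations from group means of same-numbered libraries with LPS and untreated correlated across genes at 0.199 to 0.345 in KO, 0.173 to 0.198 in WT and 0.0471 to 0.415 in dCIS. Each library with LPS correlated more with the untreated library of its number than with any other of its genotype. For dCIS library 4 the margin was narrow (0.0471 against 0.0347). Where the block within each genotype changes the call of a member, this is given beside the result. With the block over all groups, the further member called for KO against dCIS with LPS is not named here. The reported calls and the exact permutation tests are unpaired. Untreated KO and dCIS libraries of the same number correlated at 0.161 to 0.416, but for number 4 another library gave more (0.220 against 0.161). Untreated KO and WT libraries of the same number correlated at -0.0771 to 0.272, and those of different numbers at up to 0.384. The numbers thus did not always match libraries across genotypes, as the replicate block over all groups takes them to. Some members of the related lists are not reported here.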

Additional observations from a re-analysis of the deposited data

Results flagged for a closer look

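In 60 groups of 4 libraries, 7 held a library whose level lay far from the other 3 for its gene by Dixon's criterion (the gap to the nearest library as a share of the range), and chance marks about 1 in 20 groups. The 60 cases are the 10 genes in the same 24 libraries and are not independent. The share of all genes marked was not counted, so an excess particular to clock genes is not shown. Nr1d2 was marked in 3 groups, each by its highest library: 63.2 CPM in KO with LPS, 54.0 CPM in untreated KO and 34.9 CPM in untreated WT. In untreated KO, Dbp was marked by 49.3 CPM and Cry2 by 8.36 CPM, both in library 2, which also holds the Nr1d2 value. The lowest library was marked for Bhlhe40 in dCIS with LPS, at 3.30 CPM in library 3, and for Clock in untreated WT, at 28.9 CPM in library 2.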

How the results depend on the processing

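Over single members, 680 values under an alternative kept their direction and their side of the threshold, 38 lost and 32 gained a call, and 14 changed sign. For LPS against untreated, the replicate block within each genotype gave 8 members called in WT, 9 in KO and 8 in dCIS. Without the block these numbers were 5, 8 and 6. In dCIS the block added Nr1d1 (edgeR adjusted p 0.0223) and Per1 (0.0411). With library totals in place of TMM the number of members called was 9 in WT with LPS against untreated WT, and 0 for KO against untreated WT. Of all 14757 genes, that scaling called 2067 higher and 9525 lower in the former comparison, and 595 and 502 in the latter. For KO against untreated WT the number of members called was 0 with no filter, 2 without both KO libraries numbered 2, 2 by DESeq2, and 0 to 1 without single libraries. Over all genes the calls were 1033 higher and 523 lower of 36121 with no filter, and 672 and 328 of 14990 without both KO libraries numbered 2. They were 1631 and 533 of 36121 by DESeq2, and 742 and 337 of 14757 in the main fit. For KO against WT with LPS the number of members called was 0 to 1 without single libraries. For KO against dCIS with LPS the number of members called was 3 with no filter, 2 with the replicate block over all groups and 0 in the compared groups alone. It was 0 without dCIS libraries 3 and 4 with LPS, 2 without both KO libraries numbered 2, 2 by DESeq2, and 0 to 2 without single libraries. Over all genes the calls were 491 higher and 359 lower of 36121 with no filter, and 467 and 284 of 14757 with the block. They were 44 and 38 of 12470 in the compared groups alone, and 31 and 31 of 15380 without dCIS libraries 3 and 4. They were 180 and 116 of 14990 without both KO libraries numbered 2, 380 and 295 of 36121 by DESeq2, and 199 and 123 of 14757 in the main fit. With no filter the number of members called was 1 for dCIS against WT with LPS and 1 for the dCIS minus WT response, Per1 in each. Of all 36121 genes, 137 were called higher and 140 lower in the former, and 11 and 24 in the latter. The sign of Nr1d2 in dCIS turned with no filter (-0.10), with the replicate block (-0.013) and without single libraries (-0.26 to 0.23), and in KO without single libraries (-0.11 to 0.71). With library totals in place of TMM the LPS values that turned were Nr1d2 in KO (-0.56), dCIS (-0.74) and WT (-0.49), Cry1 in dCIS (-0.31) and WT (-0.53) and Cry2 in dCIS (-0.43); this moves every gene down by a like amount. Per2 in dCIS against WT with LPS was 0.035 without dCIS libraries 3 and 4. With 0.1 CPM added, the paralog shifts that passed (adjusted permutation p 0.0429) were Per1 to Per2 in KO (0.98), dCIS (3.12) and WT (1.49), Nr1d1 to Nr1d2 in KO (-1.40) and WT (-0.93), and Cry1 to Cry2 in KO (1.02); Cry1 to Cry2 in dCIS ranged from -0.00098 to 0.29 without single libraries. With RLE size factors KO against untreated WT gave 1129 genes higher and 292 lower, against 742 and 337 with TMM. The cause was not tested. Per2 and Dbp rest on at most 10 and 26 counts per library with LPS, which limits their fold changes.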
